A study of Danio rerio with 24 samples.

Results

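The translation genes of single zebrafish eggs were followed across the clutches of 5 mothers. They comprised 145 of the 88754 transcripts represented on the array. They were taken by gene name from the parts held of the study's 3 tables of expressed, distinct-level and differing transcripts. A gene entered when its symbol began with rpl, rps, mrpl, mrps, eif or eef, or ended in ars or ars2, and when its mean log2 signal was at least 7. The genes mrpl30 and those of the rps6k kinases were left out. Of 147 candidates, vars2 with a mean log2 signal of 6.84 and eef1a1l3 with 6.48 lay just below the minimum, and rpl7 with 7.13 and eif2ak1 with 7.15 just above it. By name, 36 genes encode proteins of the large (60S) and 31 of the small (40S) subunit of the cytosolic ribosome. A further 26 encode the large (mrpl) and 13 the small (mrps) subunit of the mitochondrial ribosome. The other genes, also grouped by name, were 32 initiation factors or their regulators (eif), 3 elongation factors (eef) and 4 aminoacyl-tRNA synthetases.

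A ribosome reads an mRNA and joins amino acids into protein. Initiation factors bring the first tRNA and the mRNA to the small subunit, elongation factors carry the following tRNAs, and the synthetases load each tRNA with its amino acid. Mitochondria use a ribosome and several synthetases of their own, whose proteins are encoded in the nucleus. A mature egg is transcriptionally silent and stores ribosomes and mRNA from oogenesis, and the early embryo lives on this store until its own genome is switched on.

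The eggs were mature, unfertilized eggs of the wild-type ABTL strain, obtained by squeezing, and each array held the RNA of 1 egg in Cy3. In all 24 eggs were measured, 4 of them from mother 5 and 5 from each of the other mothers. The mothers were sisters, and each gave 1 clutch, so the mother and the clutch cannot be told apart. The ages of the mothers are not given in the labels used here. Eggs of 1 clutch are the replicates, and p-values measure the spread between eggs of the same clutch.

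What was measured was the mRNA of the ribosomal proteins and not the ribosome itself. The RNA of the ribosome was removed before labelling with 9 capture oligos of 30 bases, 3 for 18S and 6 for 28S rRNA. Of these, 1 for each rRNA is shown because together they stand for the part of the ribosome that the values below leave out.
18S oligo 1: ctgaacgccacttgtccctctaagaagttg
28S oligo 6: cctccgcttagtaatatgcttaaattcagc
By the study's methods all RNA received a poly(A) tail before this step, though its introduction gives the reverse order. A transcript thus did not need a long tail of its own to be amplified. The paper proposes that the efficiency of this tailing is likely a main source of variability between samples. It removed genes that seemed to have long native tails, because scaling could distort their values. The part of tailing in the values below was not tested.

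Values are quantile normalized log2 Cy3 intensities, and 1 unit is a doubling. Since probes differ in affinity, levels are compared between eggs and never between genes. All 145 genes were called expressed, 137 of them on each of the 24 arrays, and 142 were well above background on all arrays. Across arrays, 19083 to 25813 of the 88754 transcripts were present, and the mean raw log2 signal lay between 6.60 and 7.48. For 125 of the 145 probes the study's tables list further transcripts that may hybridize, so near-identical copies are uncertain. Of the egg and oocyte markers, 4 of 19 had a paired probe, and zp2.3, npm2a, npm2b and h1m were all expressed. Their highest mother mean exceeded the lowest by 2.21-fold for zp2.3, 1.09-fold for npm2a, 1.9-fold for npm2b and 7.38-fold for h1m. The eggs of mother 1 had h1m between 11.02 and 11.54 and those of mother 3 between 8.06 and 8.62. Of the 5 blood markers, 1 had a paired probe, hbae1.1. With a mean log2 signal of 6.34 it was not called expressed, though egg 4 of mother 1 had 7.48, where the other eggs lay between 6.05 and 6.61. Of the 9 follicle cell markers, 2 had a paired probe. The steroid enzyme gene cyp11a1 lay between 11.34 and 11.81 in the eggs of mother 5 and between 9.97 and 10.67 in those of mother 2. The steroid enzyme gene hsd3b1 lay between 7.90 and 8.24 in the eggs of mother 4 and between 6.12 and 6.40 in those of mother 3. The skin keratin krt8 lay between 9.22 and 9.93 in the eggs of mother 2 and between 7.59 and 8.06 in those of mother 3. Of these markers zp2.3, h1m, hsd3b1 and krt8 were listed solely for their difference between clutches, so their separation is a description. Which part the marker genes that differed between mothers have in the translation results was not tested.

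The first question was how far translation genes differed between mothers. Tested with limma (moderated F with mother as the factor, p-values adjusted over all 27077 expressed transcripts), 97 of the 145 genes passed an adjusted p of 0.05. This count is not independent of the choice of genes, because 37 of the 145 were listed solely in tables made from differences between clutches. The other 108 came from the table of expressed genes. Of these 108, 66 (61.1%) passed, against 61.5% of all expressed transcripts and 65.4% of all those held from the same table. The share of translation genes that differed between mothers was thus close to the background. It depended on the scaling. With each array centred on its median 3 of the 108 passed, against 12.4% of all expressed transcripts. With the Cy3 over Cy5 ratio 30 passed, against 44.6%. The study's own F-test, by gene and with another estimate of the false discovery rate, called nearly all of its expressed genes different between mothers. Some genes that did not pass here, among them rps26 and rps28, are thus listed by the study as differing.

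The sizes of the differences were moderate. The highest mother mean exceeded the lowest by a median of 1.32-fold in the 108 genes and of 1.36-fold over all expressed transcripts. An adjusted p below 0.05 together with a change over 2-fold in at least 1 of the 10 pairs of mothers was reached by 2 of the 108 genes (1.85%), nars2 and mrpl54, against 10.3% of all expressed transcripts. The maximum fold change (mFC), which is the highest over the lowest of the 24 eggs, exceeded 2 for 34 of the 108 (31.5%), against 44% of all. Clutch ranges that were fully apart, called absolute distinct levels, occurred for 10 of the 108 (9.26%), against 18.2% of all. The clutch mFC, the largest fold within any clutch, was at most 2 for 98 of the 108 genes (90.7%), against 89.4% of all. With the same test on the Cy5 reference, which was the same pool on each array, none of the 145 genes passed. The background was 0% of all expressed transcripts. An unadjusted p under 0.05 was reached by 197 of these, fewer than chance gives, and by none of the 145. The pool cannot show differences that arose in tailing, amplifying or Cy3 labelling the RNA of single eggs. In the table of expressed genes the median fold was 1.28 for the cytosolic ribosome, 1.41 for the mitochondrial ribosome and 1.35 for the initiation factors, and these differences were not tested.

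**Figure D1:**
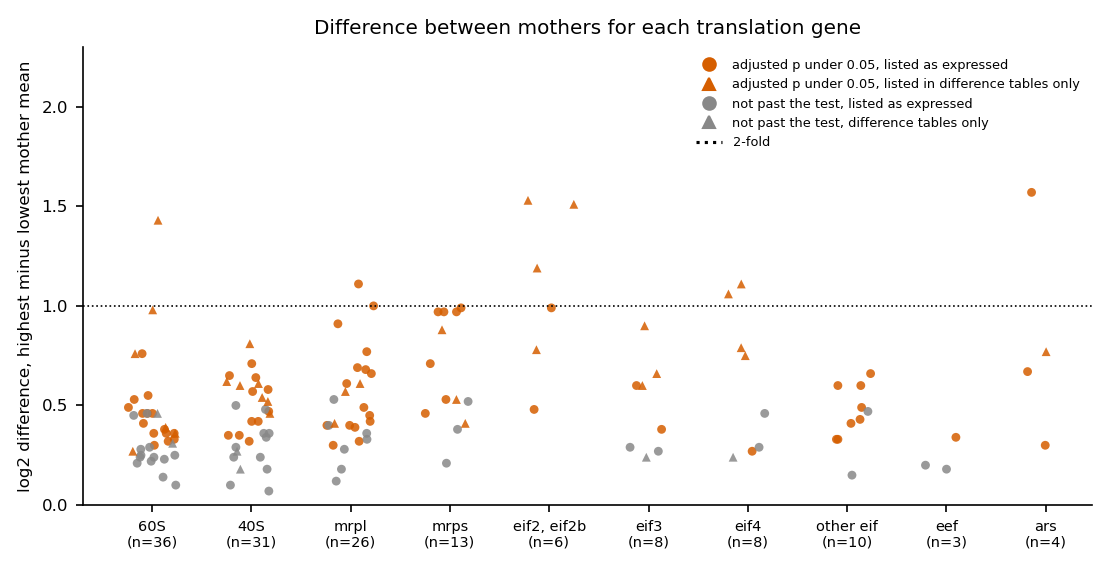
Each point is 1 of the 145 translation genes, placed by role on the x axis, and the y axis gives the log2 difference between its highest and lowest mother mean, with triangles for genes listed in difference tables only. Genes of the cytosolic ribosome lay mostly below the dotted line of 2-fold, with a median fold of 1.29, and the 6 genes of eif2 and eif2b, 4 of them from difference tables only, had a median fold of 2.13.

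The genes of the cytosolic ribosome differed little. In the table of expressed genes 26 of 50 (52%) differed between mothers, where the background of that table is 65.4%. An mFC over 2 was reached by 9 of 50 (18%), against 44% of all expressed transcripts. No gene exceeded 2-fold in any pair of mothers, against 10.3% of all. Within this limited range mother 5 stood lowest. The median of the 67 genes, each taken relative to its own mean, was 0, −0.03, 0.05, 0.06 and −0.12 log2 units in mothers 1 to 5, and that of all expressed transcripts was −0.01, 0, −0.01, 0 and 0.01. Mother 5 was the lowest for 32 of the 67 genes (47.8%), against 16.9% of all expressed transcripts, and was above the gene's own mean for 12 of 67 (17.9%), against 53% of all. Each of the 4 eggs of mother 5 shared this, with medians of −0.15, −0.21, −0.11 and −0.06. Against the other arrays of the same slide these 4 eggs had medians of −0.18, −0.19, −0.18 and −0.11.

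In pairs of mothers, 20 of the 67 cytosolic genes (29.9%) were higher in mother 4 than in mother 5 and none was lower, against a background of 10.1% higher and 8.25% lower. Among the 50 from the table of expressed genes the counts were 15 (30%) and 0. Against mother 5, mother 3 was higher for 26 of the 67 genes (38.8%) and lower for 4, and the background was 17.6% and 16.7%. Both comparisons share the eggs of mother 5. Under the Cy3 over Cy5 ratio mother 5 had a median of −0.07 and mother 3 of −0.09, and relative to all expressed transcripts mother 5 had −0.09 and mother 3 −0.07. Centring each array on its median moved the median of all expressed transcripts by −0.43, −0.18, 0.21, 0.54 and −0.12 in mothers 1 to 5. Relative to these shifts the cytosolic genes of mother 5 were still lowest, at −0.21, with mother 1 at −0.17. The count of genes lowest in mother 5 did not hold there. It was 5 of the 67 (7.46%) after median centring, close to the 6.58% of all expressed transcripts. Under the ratio it was 21 of the 67 (31.3%), against 16% of all.

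The acidic stalk proteins of the large subunit, which recruit elongation factors to the ribosome, included the largest fold of the 60S genes. The gene rplp1 (chromosome 19, 1902223 to 1905513 on Zv9) had log2 levels of 13.99, 14.41, 14.48, 14.33 and 14.36 in the eggs of mother 1 and of 13.49, 13.45, 13.52 and 13.76 in those of mother 5. The groups did not overlap, and the 1.69-fold difference of the means, 0.76 ± 0.14 log2 units (SE), came with an adjusted p over the 5 mothers of 0.000414 in limma, and was the largest fold among the 60S genes of the table of expressed genes. The partner gene rplp2 had 13.43, 13.65, 14.03, 13.50 and 13.70 in the eggs of mother 1 and 12.10, 12.14, 12.25 and 12.44 in those of mother 5, a 2.69-fold difference that also selected it for its table and is given as a description. In mother 3 the eggs fell into separate levels, since rplp2 had 11.95 and 12.26 in eggs 2 and 3 and 13.36, 13.55 and 13.35 in eggs 1, 4 and 5. The same eggs 2 and 3 had the lowest rplp1 levels of that clutch, 13.36 and 13.51.

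Of other large-subunit genes, rpl36, listed for its difference, had 13.40, 13.49, 13.48, 13.44 and 13.35 in the eggs of mother 4 and 12.54, 12.25, 12.30, 12.57 and 12.59 in those of mother 3. All 5 eggs of mother 4 lay above the 19 others, and its profile code was p22312, where 1 marks the highest level and each digit is a mother. By contrast rpl38 had 13.80, 13.80, 13.84, 13.71 and 13.74 in mother 1 against 13.45, 13.62, 13.41, 13.47 and 13.58 in mother 3, and its mFC of 1.35 over the 24 eggs was among the 5 smallest.

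In the small subunit rps3, whose protein lines the mRNA entry of the small subunit, had 13.14, 13.38, 13.33, 13.42 and 13.41 in mother 4 against 12.82, 12.75, 12.87, 12.43 and 12.61 in mother 2, a 1.56-fold difference (adjusted p = 9.55e-05, limma). The groups did not overlap. The steadiest gene of all 145 was rps28. Its 24 eggs lay between 11.96 and 12.32, with an mFC of 1.29, and its mother means differed by 1.05-fold at most (adjusted p = 0.856, limma). The next steady 40S gene, rps18, had an mFC of 1.33 and levels between 13.03 and 13.44. The study's own F-test lists both genes as differing between mothers.

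**Figure D2:**
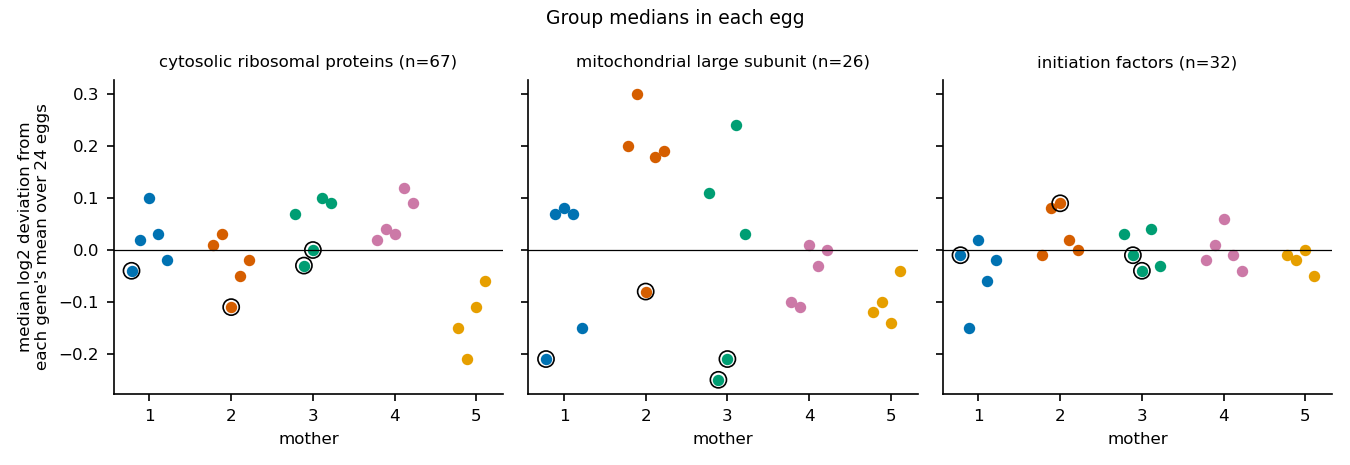
The median of each gene group in each egg is plotted by mother, in log2 units relative to each gene's own mean over the 24 eggs. The groups are the cytosolic ribosome (67 genes), mrpl (26 genes) and the initiation factors (32 genes). Circles mark 4 eggs that stood apart within their clutches. The 4 eggs of mother 5 lie between −0.21 and −0.06 for the cytosolic ribosome, and the eggs of mother 2 lie between 0.18 and 0.30 for mrpl except egg 3 at −0.08.

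Genes of the mitochondrial ribosome spread more widely over the eggs. In the table of expressed genes 23 of 33 (69.7%) differed between mothers, close to the 65.4% of all transcripts held from that table. An mFC over 2 was reached by 18 of 33 (54.5%), where the background is 44%. The small subunit had no mother far from the others, and its 13 genes had medians of 0.06, −0.04, 0.01, 0.07 and −0.03 in mothers 1 to 5. The large subunit stood highest in mother 2, with medians of −0.02, 0.17, 0, −0.07 and −0.09. Mother 2 was the highest for 14 of the 26 mrpl genes (53.8%), against 21.4% of all expressed transcripts, and without 4 eggs that stood apart within their clutches for 10 of 26 (38.5%), against 21.5%. In pairs, 12 of 26 mrpl genes (46.2%) were higher in mother 2 than in mother 5 and 3 were lower, against a background of 16.5% and 17.3%. Against mother 4 the counts were 10 (38.5%) and 3, with a background of 18.2% and 21.2%. Among the 23 mrpl genes from the table of expressed genes, 12 were higher and 1 lower against mother 5, and 10 were higher and 1 lower against mother 4.

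The eggs of mother 2 had mrpl medians of 0.20, 0.30, −0.08, 0.18 and 0.19, so egg 3 did not share the high level. Against the other arrays on their slides they had 0.19, 0.25, 0, 0.36 and 0.24. Mother 2 was the highest for mrpl under each scaling but median centring. There, relative to all expressed transcripts, it had 0.09, against 0.17 in mother 3 and 0.09 in mother 4.

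The largest difference among genes of the mitochondrial ribosome was that of mrpl54 (chromosome 22, 15693077 to 15694077 on Zv9). Its levels were 9.98, 10.13, 10.11, 10.02 and 10.14 in the eggs of mother 2 and 9.14, 8.78, 8.77 and 9.19 in those of mother 5. The eggs of mother 2 were tight and did not overlap with mother 5, and the difference was 2.15-fold (1.11 ± 0.15 log2 units, adjusted p = 1.69e-06, limma). In mother 3, eggs 2 and 3 had 9.36 and 9.45 and eggs 1, 4 and 5 had 10.06, 10.38 and 9.92. The gene mrpl14 (chromosome 13, 42550142 to 42552981) ran in another direction, with 11.52, 11.48, 11.47 and 11.40 in mother 5 against 10.45, 10.10, 10.51, 10.84 and 10.47 in mother 4. Mother 5 was thus the highest for mrpl14, by 1.99-fold (adjusted p = 2.73e-05), and its difference was 1.03-fold after median centring. The gene mrpl42 had 8.62, 8.70, 8.28, 8.18 and 8.48 in mother 2 and 7.60, 7.62, 7.80 and 7.69 in mother 5, a 1.71-fold difference (adjusted p = 5.35e-05).

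Genes of the small mitochondrial subunit did not share 1 order of mothers. The gene mrps6 (chromosome 13, 4866847 to 4872153) was 12.53, 12.54, 12.60, 12.66 and 12.56 in mother 4 and 11.69, 11.43, 11.53, 11.59 and 11.67 in mother 3, without overlap and 1.99-fold apart (adjusted p = 3.42e-08). The gene mrps21 was highest in mother 3, with 12.87, 12.61, 12.41, 12.53 and 12.53, and lowest in mother 1, with 11.88, 11.69, 11.70, 11.65 and 11.16. These levels formed 2 distinct groups, p21112, and a second probe on the array for mrps21 gave the same highest and lowest mother and 1.97-fold (r = 0.99 between the probes over the 24 eggs). In mrps14 mother 1 was instead the highest, with 11.54, 11.52, 11.31, 11.42 and 11.04 in mother 1 against 10.30, 10.25, 10.46, 10.46 and 10.51 in mother 4 (1.96-fold, adjusted p = 7.02e-07). The gene mrps25 had the same fold and the same highest and lowest mother, with levels from 10.56 to 11.05 in mother 1 and from 9.41 to 9.93 in mother 4.

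Second probes, taken from the study's lists of transcripts that may hybridize, were found for 3 more genes. For rps19 both probes had mother 4 highest and mother 5 lowest with 1.34-fold each (r = 0.50). The second rps19 probe was dimmer, with mother means from 7.63 to 8.06, against 13.33 to 13.75 on the chosen one. Next to mother 4 came mother 3 (13.74) on the chosen probe and mother 2 (8.02) on the second. For mrpl32 both had mother 5 lowest, but the highest was mother 3 with 1.52-fold on the chosen probe and mother 2 with 1.88-fold on the second (r = 0.69). For mrps24 neither probe passed the test, with folds of 1.16 and 1.08 (r = 0.93).

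**Figure D3:**
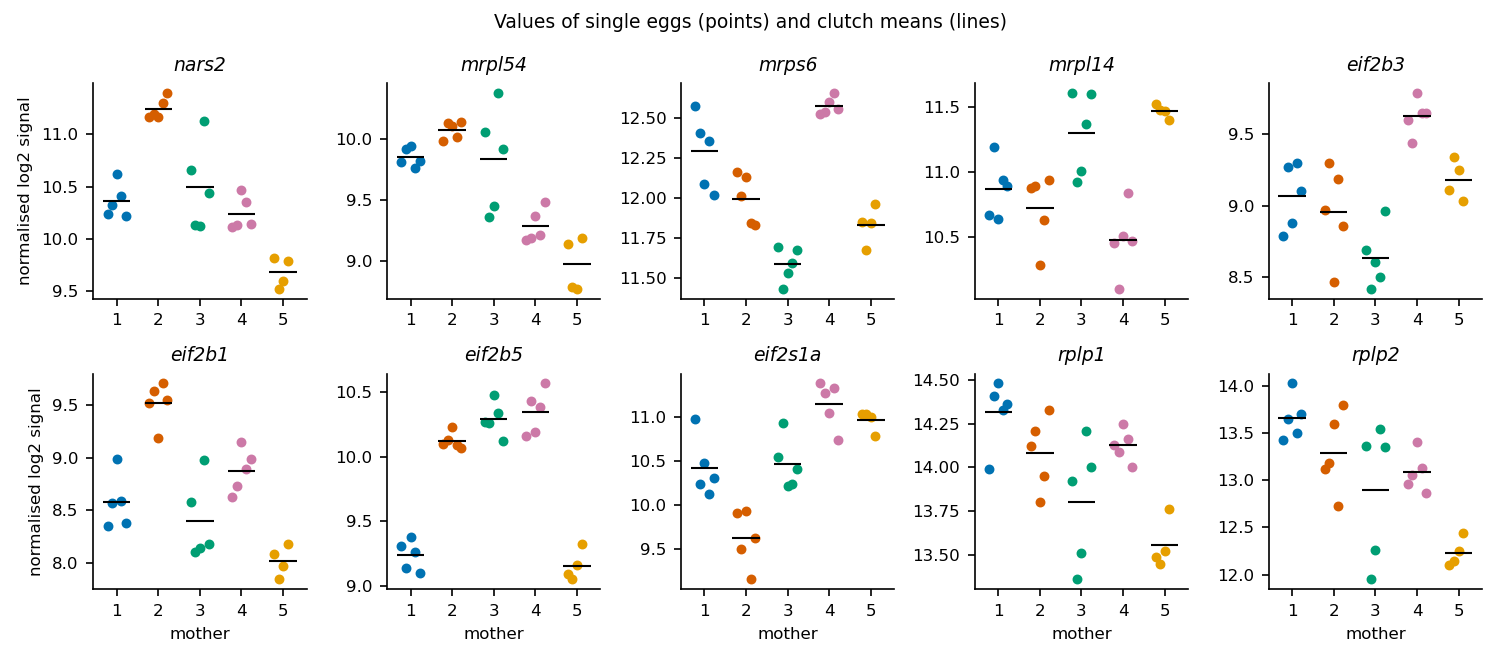
Normalized log2 Cy3 intensity (y axis, scaled for each gene) of each of the 24 eggs is drawn by mother (x axis) for 10 genes, with a bar at each mother mean. For nars2 the 5 eggs of mother 2 lie between 11.17 and 11.40 and the 4 eggs of mother 5 between 9.52 and 9.81, and for eif2b5 mothers 2, 3 and 4 lie above mothers 1 and 5 without overlap.

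Among the initiation factors, the 3 largest folds were those of genes for eIF2 and its exchange factor eIF2B. The factor eIF2 carries the initiator tRNA to the ribosome and must be recharged with GTP by eIF2B after each round. All 6 genes of the group passed the F-test, but 4 of them (eif2s1a, eif2b1, eif2b4 and eif2b5) came from difference tables only, and their differences are given without a test. The 2 genes from the table of expressed genes, where the background is 65.4%, were eif2b3 and eif2s3. The gene eif2b3 (chromosome 2, 34025737 to 34088834), for the gamma subunit of eIF2B, had 9.60, 9.44, 9.79, 9.65 and 9.65 in mother 4 and 8.69, 8.42, 8.61, 8.50 and 8.96 in mother 3. All eggs of mother 4 lay above all others (p22212), and the difference was 1.99-fold (0.99 ± 0.13 log2 units, adjusted p = 1.83e-05, limma). The gene eif2s3, for the gamma subunit of eIF2 that binds GTP and the initiator tRNA, was highest in mother 2 and lowest in mother 4 by 1.39-fold. Its adjusted p of 0.0494 (limma) lay close to the threshold of 0.05. The clutches overlapped through egg 3 of mother 2 at 11.87, where mother 4 lay between 11.86 and 12.10.

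The 4 others were as follows. The catalytic epsilon subunit eif2b5 (chromosome 2, 3062141 to 3075308) had 10.16, 10.43, 10.19, 10.39 and 10.57 in mother 4 and 9.09, 9.05, 9.16 and 9.32 in mother 5. Mothers 2 and 3 lay between 10.07 and 10.48, and mother 1 lay between 9.10 and 9.38. These levels form 2 groups (p21112) with a gap of 0.70 log2 units between them, and the largest fold within a clutch was 1.33. The alpha subunit eif2b1 (chromosome 5, 68866490 to 68876492) had 9.52, 9.64, 9.19, 9.71 and 9.55 in mother 2 and 8.08, 7.84, 7.97 and 8.18 in mother 5, 2.84-fold apart. Mother 2 alone formed its upper level, by a gap of 0.03 log2 units. With a gap of 0.12 the same held for the delta subunit eif2b4, with 10.50, 10.57, 10.79, 10.27 and 10.46 in mother 2 and 9.79, 9.49, 9.74 and 9.91 in mother 5. The upper level thus held mother 2 for eif2b1 and eif2b4, mother 4 for eif2b3, and mothers 2, 3 and 4 for eif2b5. The alpha subunit of eIF2 itself, eif2s1a, is the target of stress kinases. It had 11.38, 11.27, 11.04, 11.33 and 10.73 in mother 4 and 9.91, 9.49, 9.93, 9.15 and 9.62 in mother 2, and mother 2 alone formed its lower level (p12111, gap 0.20). Of the kinases that phosphorylate this subunit, eif2ak3 differed by 1.38-fold and eif2ak1 by 1.11-fold, and neither passed the test (adjusted p = 0.0842 and 0.549).

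Of the 8 genes of eIF3, the scaffold of the 43S complex, 2 of 4 in the table of expressed genes differed, where the background is 65.4%. Here eif3k had 11.91, 12.13, 11.04, 12.23 and 12.30 in mother 2 and 11.29, 11.31, 11.37, 11.11 and 11.51 in mother 4. The groups overlapped through egg 3 of mother 2, and the call (1.52-fold, adjusted p = 0.0397) was lost in 13 of the 24 runs that left out 1 egg, with adjusted p between 0.0002 and 0.093. The direction turned under median centring, at 0.777-fold. From the difference tables, eif3eb was highest in mother 3, with levels from 10.68 to 11.12, against 9.73 to 10.18 in mother 4.

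The eIF4 genes include eif4ea, for the protein that binds the cap of the mRNA. Of 3 genes of this group in the table of expressed genes, 1 differed, where the background is 65.4%. It was eif4bb, for a cofactor of the helicase, with 1.21-fold between mothers 4 and 3 (adjusted p = 0.0127, limma). From the difference tables, the cap-binding protein gene eif4ea had 9.02, 8.85, 8.90, 8.98 and 9.10 in mother 4 and 7.83, 7.49, 8.56, 7.52 and 7.93 in mother 2. The gene of its inhibitor eif4ebp3 was in turn highest in mother 2, with 8.69, 8.72, 9.46, 8.88 and 9.25, and lowest in mother 5, with 7.95, 7.81, 7.89 and 8.12. Thus mother 2 had the lowest mean of the eif4ea mRNA and alone formed the upper level of the eif4ebp3 mRNA (p21222, gap 0.05). The proteins were not measured.

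Of the 10 other eif genes, grouped by name and all from the table of expressed genes, 8 differed (80%), where the background of that table is 65.4%. The largest fold was that of eif2d, which delivers initiator tRNA outside the canonical route, with 10.56, 10.53, 10.61, 10.39 and 10.26 in mother 4 and 9.85, 10.04, 9.64, 9.47 and 10.04 in mother 3. These did not overlap and were 1.58-fold apart (adjusted p = 0.000105). The gene eif5, for the factor that triggers GTP hydrolysis on eIF2, was 1.52-fold higher in mother 2 than in mother 4 (adjusted p = 0.000109).

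Elongation factors were represented by the exchange complex of eEF1. Of 3 genes, all from the table of expressed genes, 1 differed, where the background is 65.4%. The genes eef1da and eef1db were, after rps28, the steadiest of all, with an mFC of 1.31 and 1.32 and levels between 14.39 and 14.78 for eef1da and between 13.67 and 14.07 for eef1db. Neither passed the test (adjusted p = 0.115 and 0.118). The gene eef1b2 was 1.27-fold higher in mother 3 than in mother 5 (adjusted p = 0.0292), and without egg 4 of mother 3, which was at 15.82, the fold was 1.18 and the adjusted p 0.139.

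All 4 synthetases differed between mothers, and 3 of them came from the table of expressed genes, where the background is 65.4%. The mitochondrial asparaginyl-tRNA synthetase nars2 had the largest fold of all 145 genes. Its levels were 11.17, 11.20, 11.17, 11.30 and 11.40 in mother 2 and 9.81, 9.52, 9.59 and 9.79 in mother 5. The eggs of mother 2 were above all others and those of mother 5 below all others (p21223), and the difference was 2.97-fold (1.57 ± 0.15 log2 units, adjusted p = 5.75e-08, limma). The smallest step between these levels was 0.04 log2 units, set by egg 4 of mother 3 at 11.13, where the clutch's other eggs lay between 10.12 and 10.66. The cytosolic tyrosyl-tRNA synthetase yars had 10.48, 10.55, 10.51, 10.47 and 10.27 in mother 4 and 9.75, 9.57, 10.18, 9.66 and 9.76 in mother 2 (1.60-fold, adjusted p = 0.000107). The glycyl-tRNA synthetase gars, listed for its difference, had 12.08, 11.48, 11.74, 11.92 and 11.80 in mother 3 and 10.78, 10.80, 11.17, 11.20 and 11.21 in mother 4. For the mitochondrial cars2 the fold was 1.23 (adjusted p = 0.0192).

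Within each slide, which held at most 1 egg of a mother, the highest mother was above the lowest on every slide with both for 28 of the 31 genes named by rule, among them nars2, mrpl54, mrps6, mrpl14, eif2b3 and rplp1. The exceptions were eif3k on 3 of 4 slides, with a lowest difference of −0.25, rps28 on 3 of 4 and rps26l on 2 of 3. For nars2 the 3 slides with both mothers gave differences of 1.41 to 1.82 log2 units, and for mrps6 the 4 slides gave 0.88 to 1.1. Since the highest and the lowest mother were picked from these same eggs, the slide counts are a description and no separate support. Where the clutches did not overlap, as for nars2, mrpl54, mrps6, mrpl14, eif2b3 and rplp1, every slide had to agree. The order also held on all 3 slides for rps26, which did not pass the test (adjusted p = 0.725, limma).

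Pairs of genes were also set side by side by their near-identical names, with no sequence compared. The eef1da and eef1db levels followed each other most, with r = 0.82 over the 24 eggs and 0.69 after removal of the clutch means. For rps27.1 and rps27.2 the relation was opposite, with r = −0.62 and −0.61 within clutches. The gene rps27.2 also varied within clutches more than any other of the 145, with a clutch mFC of 3.03. In mother 1 it had 11.57, 11.14, 10.45, 12.01 and 12.05, while rps27.1 had 12.90, 13.33, 13.39, 13.08 and 12.84. The egg with the least rps27.2 in that clutch had the most rps27.1. Neither passed the test between mothers (adjusted p = 0.385 and 0.0587). The genes rps26 and rps26l were unrelated (r = −0.04), and eif4ba and eif4bb had r = −0.24. The other pairs were eif3ja and eif3jb with r = 0.58, eif5a and eif5a2 with 0.41, and rplp2 and rplp2l with 0.28. These are descriptions over 24 eggs that share clutches, arrays and scaling, and a probe of a pair may also bind the partner.

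**Figure D4:**
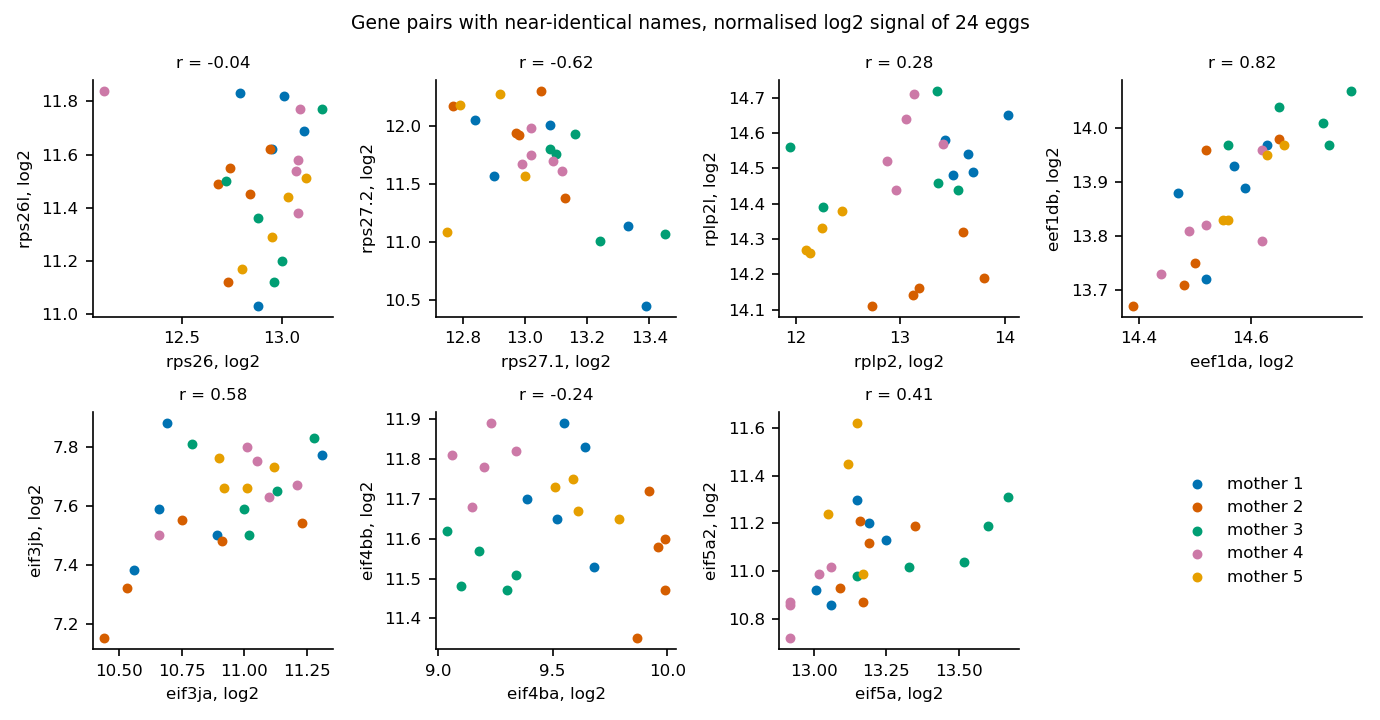
Each panel plots the normalized log2 intensity of 1 gene of a pair with near-identical names against the other, with 1 point for each of the 24 eggs coloured by mother, and the correlation r over the eggs stands in the title. The points of eef1da and eef1db rise together (r = 0.82), and those of rps27.1 and rps27.2 run in opposite directions (r = −0.62).

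Within clutches, 4 eggs stood apart by eye in the levels of ribosomal genes. They were egg 1 of mother 1, egg 3 of mother 2 and eggs 2 and 3 of mother 3, and they were singled out after their values were seen. Relative to the other eggs of their clutch, leaving the 4 out, the median of the 39 mitochondrial ribosome genes was −0.10, −0.30, −0.37 and −0.31, and that of the 67 cytosolic ones was −0.01, −0.05, −0.13 and −0.10. The 32 initiation factors had 0.08, 0.14, 0.03 and −0.01, and so were not lower as a group. Over all expressed transcripts the medians were 0.06, 0.04, 0 and 0.03. Single genes went further. For mrpl39, egg 1 of mother 1 had 8.07 against 9.06 to 9.51 in its clutch, and egg 3 of mother 2 had 8.29 against 9.21 to 9.75. For mrps28 the 4 eggs had 11.68, 11.72, 11.52 and 11.66, each the lowest or the second lowest of its clutch. For rps6 egg 3 of mother 2 had 12.77 against 13.71 to 14.01, and for rps23 it had 11.49 against 12.53 to 13.07. In rps27.2 the 4 eggs were instead above the mean of the other eggs, by 0.16, 0.29, 0.42 and 0.46, though not above each of them. The 4 eggs were not the only low ones. Egg 2 of mother 5 was the lowest of its 4 eggs for 62 of the 145 genes (42.8%), the same count as egg 3 of mother 2. Egg 3 of mother 3 was the lowest of its clutch for 33 (22.8%). Relative to the clutch mean, the mitochondrial median was −0.15 in egg 5 of mother 1 and −0.08 in its egg 1.

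The raw array mean was above the mean of the clutch by 0.36, 0.57, 0.14 and 0.33 log2 units in the 4 eggs. Of the other eggs, egg 5 of mother 3 was at −0.4 with a mitochondrial median of 0.16, and egg 2 of mother 1 was at −0.17 with 0.1. Egg 1 of mother 3 was at 0.15 with a mitochondrial median of 0.10, and egg 5 of mother 1 was at −0.09 with −0.15. Egg 2 of mother 5 was at −0.19 with −0.06. The relation over all 24 eggs was not tested. The part of the raw array mean in the result was not tested beyond a fit with it as a covariate. In that fit 68 of the 108 genes (63%) differed between mothers, against 63% of all expressed transcripts. Without the 4 eggs, 89 of the 108 genes (82.4%) differed, against 67.5% of all expressed transcripts. Since these eggs were chosen for their distance from the clutch, this count is a description.

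**Figure D5:**
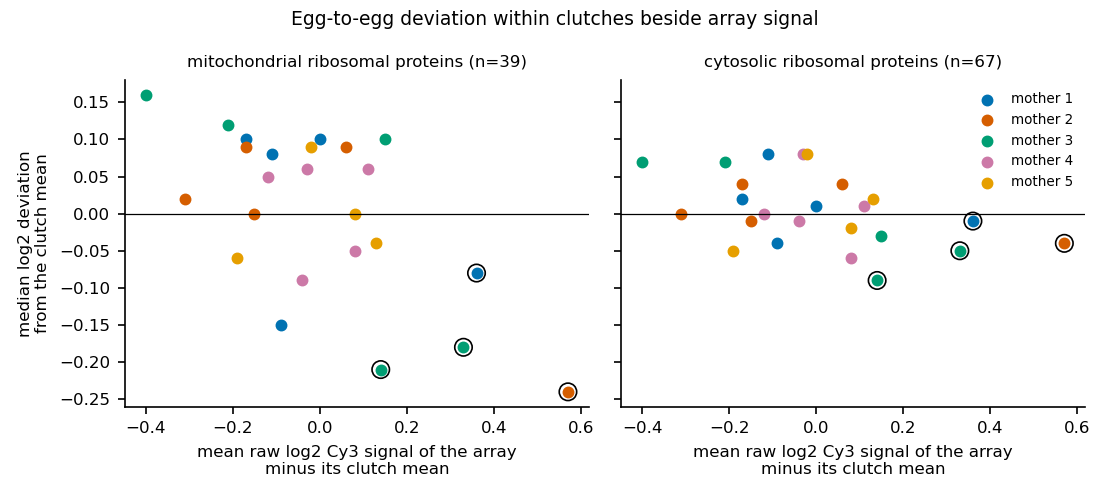
The median of the mitochondrial and of the cytosolic ribosome genes in each egg, in log2 units relative to its clutch, is plotted against the raw mean log2 signal of its array minus that of the clutch, and circles mark the 4 eggs that stood apart. The 4 circled eggs had a raw mean 0.14 to 0.57 above their clutch and mitochondrial medians below 0. Egg 5 of mother 3 lay at −0.4 with a mitochondrial median of 0.16, and egg 1 of mother 3 at 0.15 with 0.10.

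Other genes of the translation pathway were taken from a list by name. Of 39 genes of ribosome assembly, 14 had a paired and expressed probe and 10 of these differed, 8 of 12 in the table of expressed genes, where the background is 65.4%. The kinase gene riok1, for a factor in the last steps of 40S maturation, had 10.82, 10.93, 10.92, 10.95 and 10.62 in mother 4 and between 8.79 and 9.28 in mother 1, 3.62-fold apart (adjusted p = 6.4e-10). All eggs of mother 4 lay above all others. The pseudouridine synthase gene dkc1 had 11.14, 11.01, 10.84, 11.13 and 10.55 in mother 4 and 9.93, 9.56, 9.62, 9.86 and 10.01 in mother 2 (2.2-fold, adjusted p = 1.57e-06), and imp3, of the small-subunit processome, was 2.1-fold higher in mother 4 than in mother 5 (adjusted p = 2.41e-06). Mother 4 was the highest for these 3 genes, for riok2 (1.25-fold) and for rrp36 (1.9-fold), which was listed for its difference. The others that differed were highest in mother 2 (fbl and nop10), mother 3 (bop1 and ebna1bp2) or mother 5 (npm1a). Of the 4 genes of termination and rescue that could be paired, 3 differed, but gspt1 and pelo were listed for their difference, and 1 of 2 in the table of expressed genes passed. There etf1b, for the release factor that reads stop codons, did not pass (1.29-fold, adjusted p = 0.0827). All 3 mitochondrial translation factors differed, of which tsfm and mrrf were listed for their difference. The one in the table of expressed genes, gfm2, for a factor of ribosome recycling, had 9.60, 9.21, 9.45, 9.58 and 9.37 in mother 3 and 8.11, 8.40, 8.38 and 8.22 in mother 5 (2.24-fold, adjusted p = 3.28e-10). Of the 2 paired genes of mRNA binding, cpeb1b, which controls cytoplasmic polyadenylation, differed by 1.33-fold (adjusted p = 0.0173), and igf2bp3 by 1.21-fold without passing (adjusted p = 0.296).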

How the data were processed

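RNA of 24 single eggs was hybridized in Cy3 with a pooled-egg reference in Cy5 on 24 arrays of 180822 spots. The authors deposited the scanner output of Feature Extraction 10.7.3.1, whose median signals are intensity values without background subtraction, and a series table of log2 values that they had quantile normalized. Its processed signals are the same software's background-subtracted intensities. The methods imply log2 Cy3 data, and the files hold the median and no mean signal, so the median was used.

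The log2 Cy3 median of the 88754 probes of the main set was quantile normalized with 60 non-uniform spots left out (87220 other probes and 4848 control spots were set aside). Expression was called as in the methods, by a probability over 0.95 of the high-variance class on at least 4 arrays. Mothers, taken from the labels, were compared with limma 3.58.1 in R 4.3.3 (lmFit, eBayes, moderated F, Benjamini-Hochberg at 0.05 over all expressed transcripts), and pairs by contrasts of that fit. The mFC, clutch mFC and distinct levels follow the methods. Role groups have counts and medians only. Scripts were tested on simulated data. Tables and plots used Python 3.11.15, pandas 2.3.3 and matplotlib 3.10.9. The number of arrays limits the precision.

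Gene names come from the study's tables, which are held in part (1871, 1738 and 1816 transcripts, 3835 distinct) and hold the authors' comparisons, which were not used. A gene name table named 11 members. Positions are on Zv9 as in these tables, and 31 members have none. None of the members is on the authors' list of genes removed before normalization. The genes and lists were chosen with earlier results of these data known. Genes were named by a rule: the 10 largest folds past the test, the 5 smallest mFC, the largest fold of each role group in the table of expressed genes, and paralog pairs. One of the role groups and one of the pairs are not reported here under this rule. Others in the text were chosen after their values were seen. Raw array means and slide (6 slides of 4 arrays) were checked as technical factors. The RNA integrity and yield that the study gives for the eggs were not used.

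The alternatives were median centring, normexp (offset 50) in the background correction, the processed signal at the 75th percentile, the deposited log2 values, the Cy3 over Cy5 ratio, non-uniform spots kept, other filters on dim probes, slide, egg number and array mean in the fit, an unmoderated F-test, each egg left out in turn and, added after seeing the data, 4 eggs left out.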

Additional observations from a re-analysis of the deposited data

Results flagged for a closer look

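Dixon's test of the most distant egg in a clutch was run on the 31 named genes in each of the 5 clutches. Of 155 combinations, 4 (2.58%) passed, where chance gives about 1 in 20. In each of the 4 the egg was the lowest of its clutch. For rps26, egg 3 of mother 4 had a log2 level of 12.11 and its clutch's other eggs 13.07 to 13.09. For eif3k, egg 1 of mother 1 had 11.29 and the others 11.85 to 12.05, and for rps26l the same egg had 11.03 and the others 11.62 to 11.83. For eif2s1a, egg 4 of mother 5 had 10.78 and the others up to 11.03.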

How the results depend on the processing

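Of 145 genes 97 differed between mothers, and of the 108 from the table of expressed genes 66. Median centring gave 8 and 3 and the Cy3 over Cy5 ratio 50 and 30, against 12.4% and 44.6% of all expressed transcripts. The absolute distinct levels of 28 genes became 16 with the processed signal, 1 with median centring, 12 with the ratio and 55 without the 4 eggs that stood apart. The 55 genes with an mFC over 2 became 145 with median centring and 118 with the ratio, and the 133 with a clutch mFC of at most 2 became 1 and 81. The 8 over 2-fold in a pair became 117 with median centring and 17 with the processed signal. The genes listed in difference tables only held 18 of the 28 with distinct levels, 21 of the 55 with an mFC over 2 and 6 of the 8. In the main fit distinct levels occurred for 18.2% of all expressed transcripts and an mFC over 2 for 44%. A clutch mFC of at most 2 held for 89.4% of them, and 10.3% were over 2-fold in a pair. Under the alternatives these shares were not counted. Leaving out each egg in turn gave 89 to 112 differing genes, 58 to 80 from the table of expressed genes, 28 to 38 with distinct levels, 50 to 55 with an mFC over 2, 133 to 138 with a clutch mFC of at most 2, and 7 to 11 over 2-fold in a pair. Under median centring the fold turned for rps28 (0.543), rpl38 (0.592), eif5a2 (0.693) and eif3k (0.777), and under the ratio for eef1b2 (0.92), rps18 (0.981) and eef1da (0.995). Median centring also moved the median of all expressed transcripts, by −0.43, −0.18, 0.21, 0.54 and −0.12 in mothers 1 to 5. The cause of the turned folds was not tested. Under the other alternatives the gene counts above stayed within 1.5 times. For the 31 named genes, 28 combinations of gene and alternative lost the F-test call, 9 gained it and 7 turned in direction. The calls of nars2, mrpl54, mrps6, mrpl14, rplp1, rplp2, eif4ebp3 and eif2d each held in 12 of 13 alternatives. The egg numbers did not pair the samples: eggs of the same number had correlations of their deviations from −0.53 to 0.67 (median 0.06), and 4 of 24 eggs matched best with their own number. With egg number as a replicate block 95 of 145 and 64 of 108 genes differed. The number of eggs limits what can be seen.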
